A study of Mus musculus with 16 samples.

Results

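The transcripts described here are 10 genes of B cells, T cells and natural killer (NK) cells, *Ighm*, *Ighd*, *Igkc*, *Cd79a*, *Cd79b*, *Cd3e*, *Cd3g*, *Trbc2*, *Trac* and *Nkg7*, out of 55487 genes in the table. They were taken by symbol from a given list, in which *Ighm* was selected on its measured CPM, because it fell strongly after LPS at ZT13, and the other 9 for the cell types they mark. The samples were bulk cortex of 16 wild-type C57Bl6 male mice aged 2 months, injected i.p. on 2 consecutive days with lipopolysaccharide (LPS, a bacterial cell wall component) at 2 mg/kg or with PBS. Injections were given at ZT1, 1 hour after lights on, or at ZT13, 1 hour after lights off, and tissue was taken 24 hours after the last one. The groups were ZT1 PBS (n = 3), ZT1 LPS (n = 5), ZT13 PBS (n = 3) and ZT13 LPS (n = 5), and no group carried a transgene or a second treatment. Each mouse gave 1 library, so replicates are separate mice.

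B cells carry a membrane immunoglobulin made of a heavy chain, such as the mu chain of *Ighm* or the delta chain of *Ighd*, and a light chain, such as the kappa chain of *Igkc*. The immunoglobulin signals through CD79a and CD79b. T cells carry a receptor of alpha and beta chains, whose constant parts come from *Trac* and from *Trbc1* or *Trbc2*, and which signals through the CD3 chains. *Nkg7* encodes a granule membrane protein of NK cells and cytotoxic T cells. Healthy brain parenchyma holds few of these cells, and most brain lymphocytes lie in the meninges, the choroid plexus and blood.

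Values are CPM, the reads on a gene per 1000000 reads on all genes of that library. The libraries held 20251840 to 29112758 reads on genes, so that 3 reads, the limit that a count of 0 allows, equal 0.103 to 0.148 CPM. In 12 of 16 samples the treatment field disagrees with the title, and the titles were used. *Gfap*, an astrocyte gene that rises in gliosis, was 110.5 to 122.8 CPM in the 6 mice titled PBS and 572.1 to 1134 CPM in the 10 titled LPS. *Lcn2*, an acute-phase gene, was at most 0.197 CPM in the former and at least 107 CPM in the latter. No library went against its title.

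Of the 10 genes, 2 (*Ighm* and *Trbc2*) reached 1 CPM in at least 3 of 16 samples, the filter of the main fit, and both reached it in all 16. With a filter of 0.1 CPM, 9 passed, and *Cd3g* did not pass. Levels of different genes are compared here as CPM per kb of annotated exon. On that scale the median over 16 mice was 6.57 for *Trbc2*, 3.93 for *Ighm*, 0.243 for *Cd79b*, 0.222 for *Trac*, 0.209 for *Igkc*, 0.0977 for *Nkg7*, 0.0961 for *Cd79a*, 0.0248 for *Ighd*, 0.0213 for *Cd3e* and 0 for *Cd3g*. The first 2 stood apart from the other 8, whose ranges over mice overlapped, except that *Cd3g* lay below *Cd79a* and *Trac* in every mouse. In PBS mice *Ighm* and *Trbc2* lay at the same level, with means of 6.73 and 6.71 CPM per kb at ZT1.

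The genes that define B and T cells were not measured at such levels. *Ms4a1*, a B cell surface protein, was at most 0.0123 CPM per kb in any mouse. *Iglc3*, *Ighg1* and *Ighe*, other immunoglobulin constant genes, were listed at 0 in all 16 mice, while *Ighg2c*, also of the heavy chain locus, had a median of 0.974 CPM per kb. *Cd3d* was at most 0.0462 CPM per kb and *Trbc1* at most 0.488, while *Cd4*, which myeloid cells can also express, had a median of 0.458. Variable segments, which assembled receptors join to these constant genes, were near 0 as well. The 185 *Ighv* segments summed to at most 0.175 CPM in a mouse, with any read on 12 of them, and the 160 *Igkv* segments to at most 0.346 CPM. The 35 *Trbv* segments summed to at most 0.07 CPM, whereas the 130 *Trav* segments summed to 0.337 to 0.925 CPM. In PBS mice *Ighm* and *Trbc2* thus lay above each of these other B and T cell genes, and both are called here by gene and not by cell type. How reads were shared between similar genes was not given in the sources used here.

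**Figure D1:**
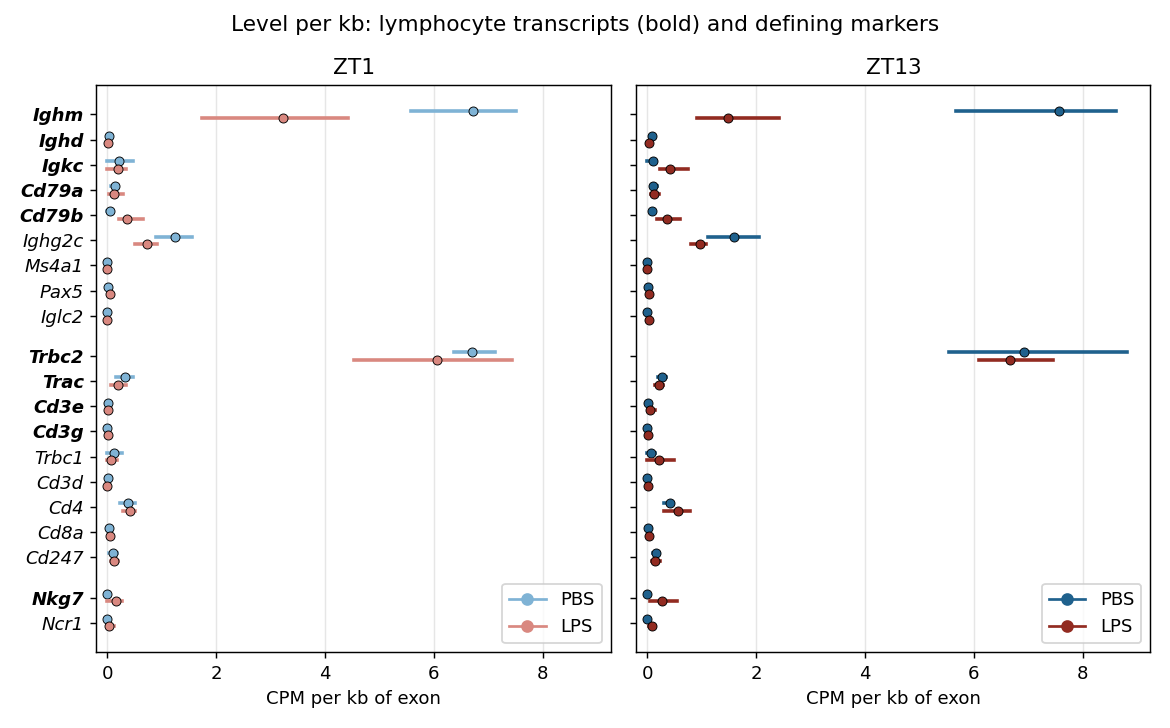
CPM per kb of exon (linear axis) for the 10 lymphocyte transcripts in bold and for defining markers of B, T and NK cells. Points are group means and bars run from the lowest to the highest mouse of the PBS (n = 3) and LPS (n = 5) groups, at ZT1 on the left and ZT13 on the right. *Ighm* and *Trbc2* stand apart from the rest in PBS mice, at 6.73 and 6.71 CPM per kb at ZT1, and *Ighm* is lower in the LPS groups.

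*Ighm* is ENSMUSG00000076617 on the minus strand of chromosome 12, 113418558 to 113422730 in GRCm38, next to *Ighd* at 113406604 to 113416324, and no other annotated gene overlaps it. The first 60 bases of its first constant exon, the end to which a variable region is spliced, are shown because *Ighm* carries the main result below. They lie at chr12:113422671-113422730 and come from the GENCODE M21 transcripts. No part is in capitals.
Ighm: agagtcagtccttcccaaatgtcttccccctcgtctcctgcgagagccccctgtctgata

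*Trbc2* is ENSMUSG00000076498 on the plus strand of chromosome 6, 41546730 to 41548352, and its near copy *Trbc1* lies at 41538218 to 41539881. The first exons of both, 375 bases each, differ at 1 base, position 260 counted from the exon's 5′ end, and are 99.7% identical. The stretches of 121 bases around that base are shown because reads from this exon cannot be told apart elsewhere. They are chr6:41538417-41538537 for *Trbc1* and chr6:41546929-41547049 for *Trbc2*, from the GENCODE M21 transcripts, with the differing base in capitals.
Trbc1: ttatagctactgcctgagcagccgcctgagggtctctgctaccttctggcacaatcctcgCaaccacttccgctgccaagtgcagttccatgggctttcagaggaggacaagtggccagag
Trbc2: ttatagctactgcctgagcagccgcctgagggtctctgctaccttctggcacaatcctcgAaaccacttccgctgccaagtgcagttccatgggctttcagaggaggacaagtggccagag
The value of *Trbc2* was a whole number of reads, within 0.01 read, in 6 of 16 samples, against 16 of 16 for each of the other 9 genes. The split of reads between *Trbc1* and *Trbc2* is therefore uncertain.

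The effect of LPS at ZT1 was compared first, since these 8 mice played no part in the choice of *Ighm*. *Ighm* was 14.2, 10.5 and 13.4 CPM in the ZT1 PBS mice and 3.26, 8.15, 8.35, 4.1 and 6.66 CPM in the ZT1 LPS mice. All 5 LPS mice were below all 3 PBS mice. The PBS mean was 12.7 ± 1.92 CPM (SD, n = 3) and the LPS mean 6.1 ± 2.32 CPM (SD, n = 5), resting on 213 to 318 and 70 to 243 reads per mouse. The log2 fold change was -1.07 (SE 0.26) on the log2(CPM + 0.5) scale, with an adjusted p of 0.0175 by limma with Benjamini-Hochberg adjustment, against 16.2% of 18859 genes called in either direction and 5.15% called lower. The exact two-sided permutation p of the difference of means was 0.036, the smallest that 3 mice against 5 allow. The adjusted p was 0.0089 to 0.14 over the alternative settings with all mice. It was 0.14 when all genes with any CPM above 0 were tested and 0.056 without an intensity trend, and 0.086 and 0.078 without replicate 1 or replicate 3 of ZT1 PBS. In bulk tissue, fewer cells of a type and less RNA per cell cannot be told apart.

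At ZT13, where *Ighm* was chosen for its decrease, its values are a description with no test. They were 15.9, 10.7 and 16.3 CPM in the PBS mice and 3.28, 1.72, 2.14, 2.27 and 4.57 CPM in the LPS mice, again without overlap. The PBS mean was 14.3 ± 3.12 CPM (SD, n = 3) and the LPS mean 2.8 ± 1.14 CPM (SD, n = 5). The log2 difference was -2.21, where 28.6% of genes were called in either direction and 9.4% lower. Between times, the PBS groups overlapped, with a log2 difference of ZT13 against ZT1 of 0.15. The LPS groups had a log2 difference of -0.99, and 2 of the 5 ZT13 LPS mice (3.28 and 4.57 CPM) lay above the lowest ZT1 LPS mouse. The order of the group means was ZT13 PBS, ZT1 PBS, ZT1 LPS and ZT13 LPS, in which both pairs of neighbours with the same treatment overlapped.

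*Trbc2*, the beta chain constant gene, lay between 3.13 and 6.1 CPM in all groups. It was 4.92, 4.59 and 4.41 CPM in ZT1 PBS, 4.06, 3.13, 5.15, 4.07 and 4.57 in ZT1 LPS, 3.83, 6.1 and 4.43 in ZT13 PBS, and 4.62, 5.16, 4.58, 4.22 and 4.52 in ZT13 LPS. All groups overlapped, and 1 ZT13 PBS mouse was the highest of the 16. At ZT1 the log2 fold change after LPS was -0.15 (limma adjusted p = 0.54), with a 95% interval of -0.45 to 0.16, so that a fall of the size seen for *Ighm* lies outside it. For ZT13 against ZT1 it was 0.02 in PBS mice (interval -0.34 to 0.38, adjusted p = 0.98) and 0.14 in LPS mice (interval -0.11 to 0.38, adjusted p = 0.76). The TOD × treatment interaction was 0.12 (interval -0.29 to 0.53, adjusted p = 0.91). At ZT13 the difference after LPS was -0.03, given as a description. *Trac*, the alpha chain constant gene, had 2 to 9 reads per mouse, and its group means were 0.296 and 0.175 CPM in ZT1 PBS and LPS and 0.245 and 0.202 CPM in ZT13 PBS and LPS. At ZT1 its difference had an exact permutation p of 0.25.

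**Figure D2:**
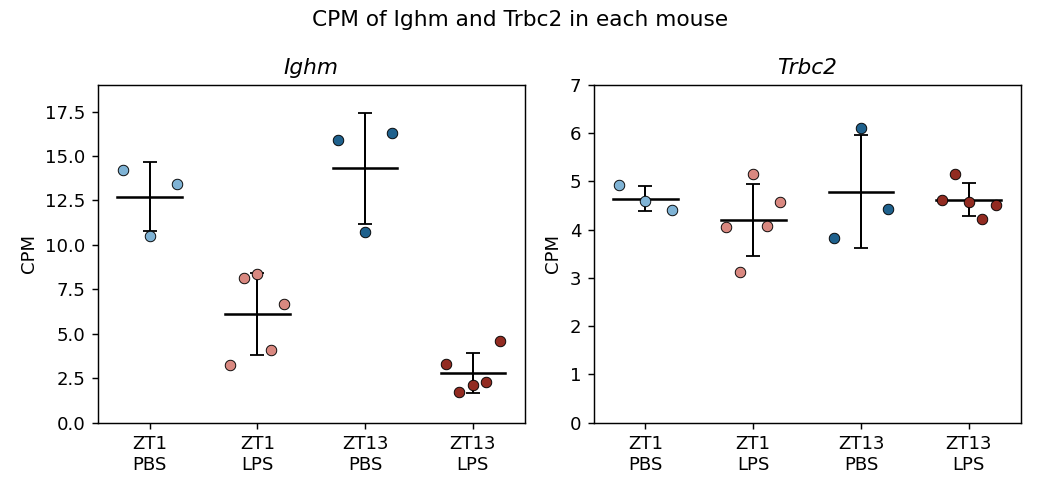
CPM (linear axis from 0) of *Ighm* on the left and *Trbc2* on the right in each of 16 mice, by group, with the group mean and SD in black. For *Ighm* every LPS mouse sits below every PBS mouse at ZT1 and at ZT13, and for *Trbc2* all 4 groups overlap between 3.13 and 6.1 CPM.

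The other chains of the B cell receptor were at a few reads per mouse, and 1 of them rose after LPS. *Cd79b*, the beta signalling chain, was 0.0493, 0 and 0.126 CPM in ZT1 PBS (1, 0 and 3 reads) and 0.933, 0.448, 0.309, 0.385 and 0.544 CPM in ZT1 LPS (20, 10, 9, 11 and 12 reads). All 5 LPS mice were above all 3 PBS mice, with means of 0.524 ± 0.244 CPM (SD, n = 5) and 0.0585 ± 0.0637 CPM (SD, n = 3). The summed reads, 62 against 4, gave a ratio of 8.07 per read sequenced, with an exact 95% counting interval of 3 to 30.5. The exact permutation p was 0.036, again the smallest possible. *Cd79b* met the 0.1 CPM filter through LPS mice, since 2 of 6 PBS mice reached 0.1 CPM, so its adjusted p in that fit (0.011, log2 fold change 0.85, SE 0.18, limma) is given as a value only. With all genes above 0 CPM fitted, the adjusted p was 0.06. At ZT13 it was 0.152, 0.0925 and 0.0896 CPM in PBS mice and 0.399, 0.859, 0.252, 0.606 and 0.537 CPM in LPS mice, given as a description. *Cd79b* was thus higher, and *Ighm* lower, in each LPS group, while *Cd79a*, the alpha signalling chain, overlapped throughout.

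*Cd79a* had 1 to 12 reads per mouse and means of 0.197 ± 0.098 and 0.165 ± 0.144 CPM in ZT1 PBS (SD, n = 3) and ZT1 LPS (SD, n = 5). Its exact permutation p at ZT1 was 0.79, and its counting ratio of 0.881 had an interval of 0.424 to 1.9. *Igkc*, which shares its strand and part of its position with the predicted gene *Gm30211*, had at most 9 reads and means of 0.11 and 0.103 CPM at ZT1. At ZT13 it was 0 to 0.0896 CPM in PBS mice and 0.129 to 0.399 CPM in LPS mice, a description from the contrast that chose *Ighm*. *Ighd*, which is spliced from the same primary transcripts as *Ighm*, had at most 5 reads. It was 0.0896 to 0.231 CPM in ZT13 PBS and 0 to 0.0896 CPM in ZT13 LPS, where the lowest PBS and the highest LPS mouse each had 2 reads, and 0 to 0.126 and 0 to 0.136 CPM in ZT1 PBS and LPS. At ZT1 its counting ratio of 0.52 had an interval of 0.0969 to 2.79, so a change of the size of that of *Ighm* was not detectable at this depth.

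The CD3 chains were close to 0. *Cd3e*, which overlaps 2 other predicted genes (*Gm48719* and *Gm48720*), was 0.0493 to 0.0988 CPM in ZT1 PBS, 0 to 0.14 in ZT1 LPS and 0 to 0.0896 in ZT13 PBS. In ZT13 LPS it was 0.0443, 0.129, 0.126, 0.606 and 0.134 CPM, and replicate 4, with 16 reads, stood alone. Without that mouse the ZT13 LPS mean went from 0.208 to 0.108 CPM. *Cd3g* had no read in any PBS mouse, 1 read in 1 of 5 ZT1 LPS mice and 1 or 2 reads in 4 of 5 ZT13 LPS mice. All of these are under the 3-read limit, so no fold is given. Replicate 4 of ZT13 LPS also had the highest *Nkg7*, *Trbc1*, *Gzma* and *Gzmb* of its group, at 0.493, 0.366, 2.88 and 1.71 CPM. It was highest as well for *Cd2*, *Prf1* and the B cell gene *Cd79a* (0.303 CPM). It ranked only 2 or 3 of 5 for *Trac*, *Cd3d*, *Cd3g*, *Cd8a*, *Cd79b* and *Ighm*.

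*Nkg7* had no read in any of the 6 PBS mice, which allows at most 0.114 to 0.148 CPM by library. It was 0.187, 0, 0.24, 0.175 and 0.136 CPM in ZT1 LPS and 0.0443, 0.215, 0.335, 0.493 and 0.134 CPM in ZT13 LPS, so 9 of 10 LPS mice had reads. Against the mean limit of 3 reads per PBS library the ZT1 LPS mean was at least 1.05-fold higher and the ZT13 LPS mean at least 1.89-fold higher. At ZT1 the exact permutation p was 0.14, so the ZT1 difference did not pass. *Nkg7* met the 0.1 CPM filter through LPS mice, since 0 of 6 PBS mice reached 0.1 CPM. Its limma adjusted p in that fit (0.12) is therefore given as a value only.

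**Figure D3:**
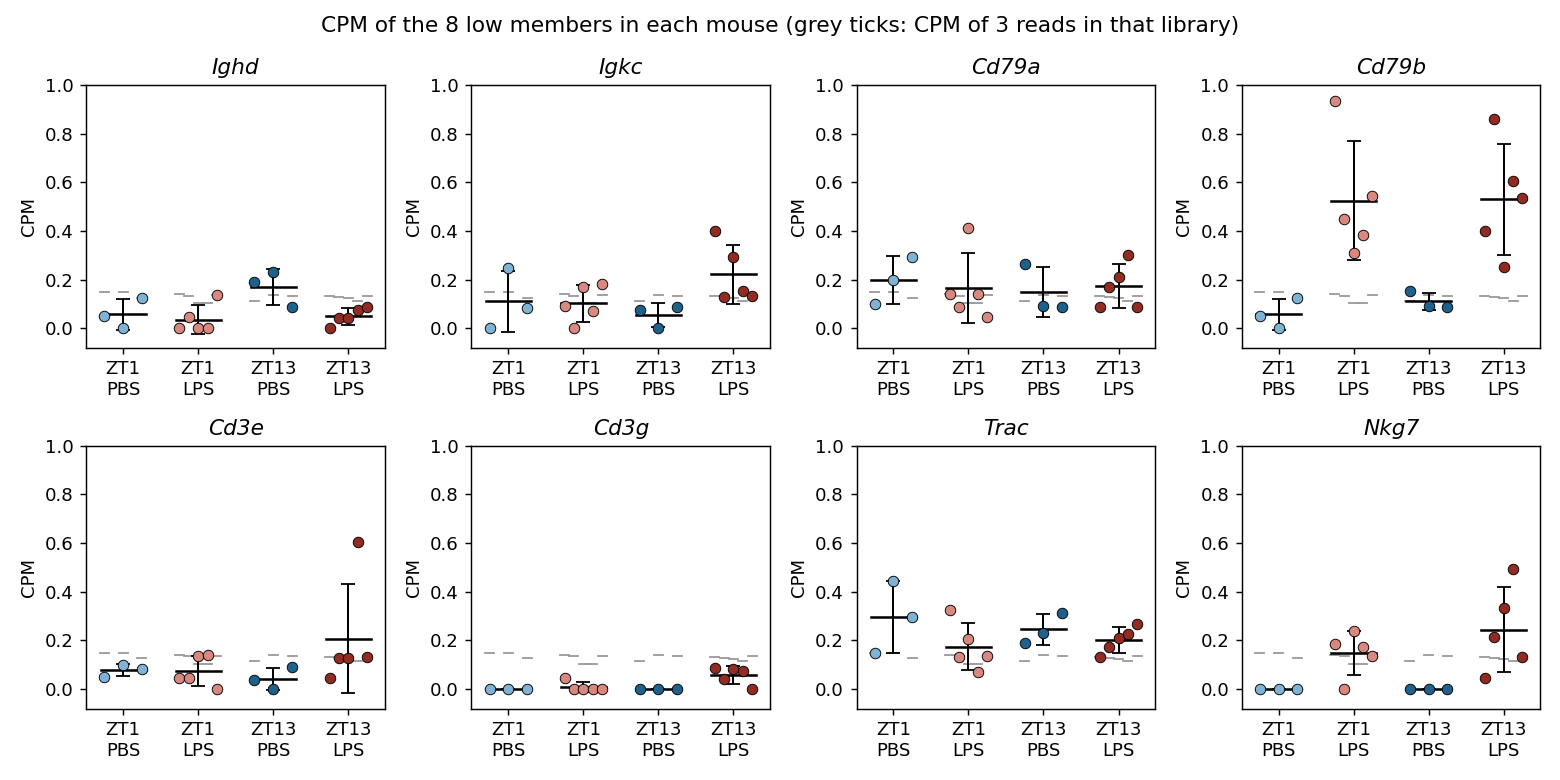
CPM (linear axis, the same in every panel) of the 8 members below 1 CPM in each of 16 mice, by group, with group mean and SD in black and a grey tick at the CPM of 3 reads in each library. *Cd79b* is above the tick in all 10 LPS mice, *Nkg7* is at 0 in all 6 PBS mice, and 1 ZT13 LPS mouse at 0.606 CPM stands apart for *Cd3e*.

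Over the 10 genes, 2 did not overlap between PBS and LPS at ZT1, *Ighm* lower and *Cd79b* higher, beside 13.4% of the 38565 genes with any read. At ZT13, 5 of 10 did not overlap (*Ighm* and *Ighd* lower, *Igkc*, *Cd79b* and *Nkg7* higher), beside 17.3% of genes, and nothing is read from that count because this contrast chose *Ighm*. The fit with the 0.1 CPM filter called 9.99% of 27777 genes at ZT1 and 19.1% at ZT13, and no count of members is read from it, because *Igkc*, *Cd79b*, *Cd3e* and *Nkg7* met that filter through LPS mice. *Ighm* was not tested between times or in the interaction, since those comparisons share mice with the one that chose it. None of the other 9 members passed between times in PBS mice, where 0.52% of genes were called with the 1 CPM filter and 0.0864% with the 0.1 CPM filter. Their smallest exact p there was 0.2, in a design that cannot go below 0.10. None of these 9 passed between LPS mice either, where 0.0212% of genes were called (4 genes, and 1998 at an unadjusted p under 0.05) and 0.0144% with the 0.1 CPM filter. The smallest exact p of the 9 was 0.087, for *Cd3g*, in a design that can reach 0.0079. The interaction called none of those fitted, *Trbc2* with the 1 CPM filter and 8 of the 9 with the 0.1 CPM filter, beside 0.159% of genes and 0.104% with the 0.1 CPM filter.

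Longer lists of the same cell types were read by their counts, beside 11.1% of genes called higher and 5.15% lower at ZT1. Over all genes tested the median log2 fold change was 0.04. Of 21 B cell markers, 5 reached the filter and 1 rose, *Cd72*, a B cell coreceptor that myeloid cells can also express, by 2.14 on the log2 scale (limma adjusted p = 0.0033). Its mean was 0.885 ± 0.182 CPM (SD, n = 3) in PBS mice against 6.37 ± 3.51 CPM (SD, n = 5) in LPS mice. The list median was 0.18, and with the 0.1 CPM filter 2 of 13 were called higher, *Cd72* and *Cd22*, an inhibitory lectin. With that filter 1931 of 27777 genes were called higher. *Cd22* was at most 0.0896 CPM in ZT13 PBS mice and needed LPS mice to meet the filter, so nothing is read from its call. Of 13 plasma cell genes, 4 were tested and none was called at ZT1, with a median of 0. Among them *Ighg2c*, picked out after its values were seen as the other well measured immunoglobulin gene, had a log2 fold change of -0.53 (adjusted p = 0.077). Of 24 T cell markers, 6 were tested and none was called, with a median of 0.02. With the 0.1 CPM filter 1 of 20 was called higher, *Ccr7*, a homing receptor that dendritic cells share. *Ccr7* was at most 0.0493 CPM in any PBS mouse and met that filter through LPS mice, so nothing is read from its call.

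Among NK and cytotoxic genes, 3 rose after LPS at ZT1, *Ccl5*, *Il2rb* and *Gzma*. They were 3 of the 14 fitted with the 0.1 CPM filter, of 18 listed, with a list median of 0.16. With that filter 1931 of 27777 genes were called higher, but *Gzma* and *Il2rb* needed LPS mice to meet it. With the 1 CPM filter they were 3 of 4, but each reached 1 CPM in LPS mice alone. Nothing is read from either share. *Ccl5*, a chemokine also made by myeloid and glial cells, went from 0.218 ± 0.074 to 40.3 ± 12.8 CPM (log2 fold change 5.78, limma adjusted p = 7.3e-08), and *Il2rb*, an interleukin receptor chain, from 0.16 ± 0.162 to 0.858 ± 0.443 CPM (log2 fold change 1, limma adjusted p = 0.035, SD with n = 3 and n = 5). *Gzma*, a granule protease, had no read in any PBS mouse. The summed list was 2.11 to 2.82 CPM in ZT1 PBS and 28.1 to 58.9 CPM in ZT1 LPS, of whose mean of 44.4 CPM *Ccl5* made 40.3 CPM. *Ncr1*, which marks NK cells, had no read in any PBS mouse and means of 0.0556 and 0.124 CPM in the LPS groups.

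Many genes that act downstream of the antigen receptors are also used by microglia and other myeloid cells. Of 18 B cell receptor signalling genes, 17 were tested, 12 rose and 1 fell at ZT1, with a median log2 fold change of 0.98. Among those that rose, *Btk* reached 1 CPM in LPS mice alone, so nothing is read from that share. *Fcgr2b*, the inhibitory Fc receptor, rose by 2.27 and *Pik3ap1*, an adaptor for phosphoinositide 3-kinase, by 2.03 on the log2 scale (limma adjusted p = 3.1e-05 and 0.00055). *Prkcb*, a kinase that neurons also express, fell by 0.15 (adjusted p = 0.034). Of 16 T cell receptor signalling genes, 12 were tested, 3 rose and 1 fell. Of the 3, *Ptprc* and *Vav1* are on both lists and are also counted among the B cell receptor genes that rose. *Ptprc*, the phosphatase CD45 of all leukocytes, rose by 1.82 and *Vav1*, an exchange factor, by 1.74, while *Rasgrp1*, a Ras activator also found in neurons, fell by 0.17 on the log2 scale (limma adjusted p = 0.0063, 0.00031 and 0.033).

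Of 21 homing and survival genes, 16 were tested, 10 rose and 2 fell at ZT1, with a median of 0.67. *Cxcl10*, a ligand of the T and NK cell receptor CXCR3, rose by 2.98 and *Icam1*, an adhesion ligand for leukocyte integrins, by 2.95 on the log2 scale (limma adjusted p = 2.8e-06 and 2.6e-07). *Cxcl12*, a chemokine that retains lymphocytes in tissues, fell by 0.64 and *S1pr1*, the receptor for lymphocyte egress that brain endothelium and astrocytes also express, by 0.4 (adjusted p = 3.7e-05 and 0.0074). At ZT13, 19.2% of all genes were called higher and 9.4% lower, with a median of 0.05. Called higher were 2 of 5 B cell, 14 of 17 B cell receptor, 7 of 12 T cell receptor and 12 of 16 homing genes. With the 0.1 CPM filter 5 of 14 NK and cytotoxic genes were called higher, beside 3645 of 27777 genes. Some NK and homing genes among these met their filter through LPS mice, as at ZT1. So did *Btk* of the B cell receptor list and *Ptpn22* of the T cell receptor list. Nothing is therefore read from the NK, B cell receptor, T cell receptor and homing shares. With the 1 CPM filter at ZT13, 0 of 6 T cell genes were called and 1 of 4 plasma cell genes, *Ighg2c*, was called lower. *Ighg2c* was also called lower with the 0.1 CPM filter, and there the call was lost without replicate 4 of ZT13 LPS. Scaling by median-of-ratios moved the split of all calls from 2089 higher and 972 lower to 1668 and 1417 at ZT1, and from 3629 and 1772 to 2870 and 2759 at ZT13. None of these genes was called between times in PBS or in LPS mice. In the TOD × treatment interaction 1 was called, *Cxcl12*, whose log2 fold change after LPS was 0.47 higher at ZT13 than at ZT1 (SE 0.09, limma adjusted p = 0.042), being -0.64 at ZT1 and -0.17 at ZT13.

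**Figure D4:**
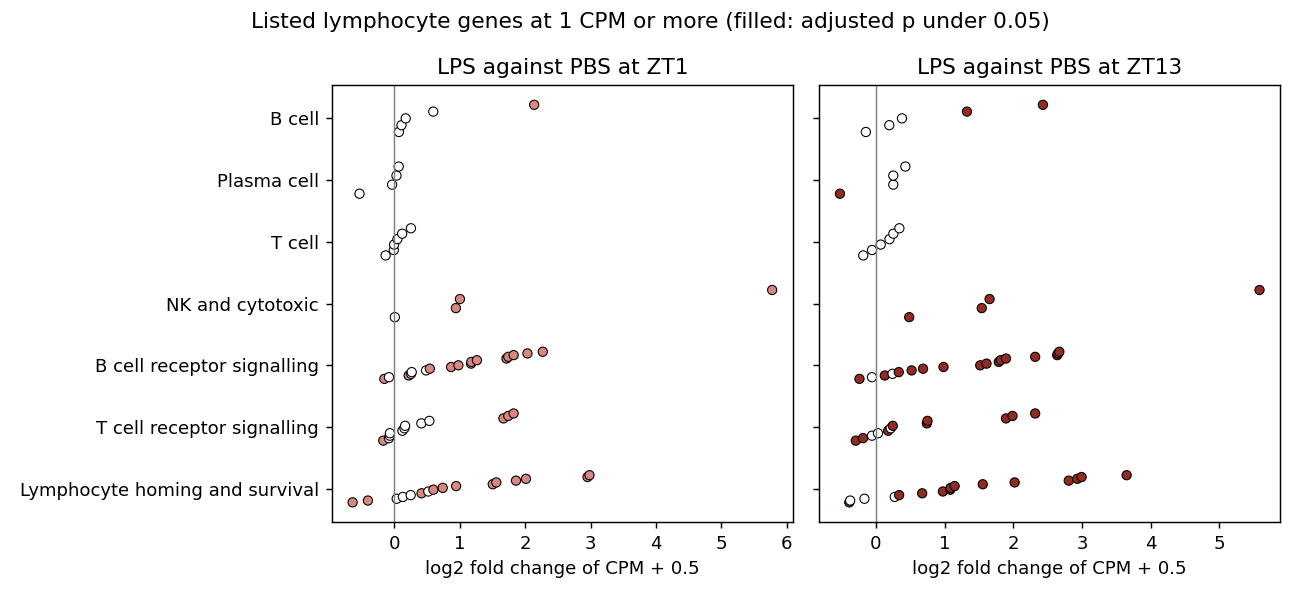
Log2 fold change of CPM + 0.5 (LPS against PBS) of each listed gene that reached 1 CPM in 3 samples, at ZT1 on the left and ZT13 on the right, with 1 row per list. Filled points had a limma adjusted p under 0.05. At ZT1 no T cell or plasma cell gene is filled, 1 B cell gene is, and 12 of 17 B cell receptor signalling genes are filled to the right of 0.

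Markers of other blood and tissue cells differed between PBS and LPS mice as well. The summed level of 10 neutrophil genes was 1.98 to 2.36 CPM in ZT1 PBS, 15.7 to 67.5 in ZT1 LPS, 0.971 to 2.33 in ZT13 PBS and 48.3 to 120.3 in ZT13 LPS, and 6 of 7 tested rose at ZT1. The 5 monocyte genes all rose at ZT1. Of the genes called on the neutrophil and monocyte lists, only *Mmp9* and *F13a1* reached 1 CPM in any PBS mouse. The others met the filter through LPS mice, so nothing is read from those counts. Of 6 microglia genes 5 rose, beside 11.1% of all genes called higher and 5.15% lower. The other, *P2ry12*, fell by 1.08 on the log2 scale (limma adjusted p = 0.0012). Erythrocyte genes summed to 10.7 to 17 CPM in ZT1 PBS and 6.23 to 35.9 CPM in ZT1 LPS, and 0 of 5 were called. Choroid plexus genes ranged from 14.5 to 923.1 CPM in ZT1 PBS and from 14.2 to 859.2 CPM in ZT1 LPS, and 0 of 6 were called. The part of these cells in the level of *Ighm*, *Cd79b* or *Nkg7* was not tested.

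Genes whose log2(CPM + 0.5) followed *Ighm* most closely over the 16 mice, among 18858 compared, were not lymphocyte genes. They included *Dlg4* (r = 0.965), a postsynaptic scaffold, *Ncan* (0.959) and *Bcan* (0.953), proteoglycans of the brain matrix, and *Tspan7* (0.955), a membrane tetraspanin. These points share the difference between PBS and LPS mice. On deviations from the group means r was 0.85 for *Dlg4*, 0.899 for *Ncan*, 0.686 for *Tspan7* and 0.783 for *Bcan*. In the same order, r was 0.928, 0.954, 0.901 and 0.908 within the 10 LPS mice, but 0.576, 0.637, 0.127 and 0.263 within the 6 PBS mice. Only positive r was ranked, and *Syk*, of the B cell receptor signalling list, had an r of -0.966 over the 16 mice. *Ncan* was 418.2 to 445.1 CPM in ZT1 PBS, 304.8 to 360.4 in ZT1 LPS, 423.9 to 446.3 in ZT13 PBS and 291.4 to 333.8 in ZT13 LPS, the same order of treatments as *Ighm* with a smaller relative difference.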

How the data were processed

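The authors deposited 1 table of CPM for the 16 libraries, made from total RNA after ribosomal depletion (KAPA RiboErase). Submitters' processing notes name GRCm38, bcl2fastq and DRAGEN 4.0.3-8. The counting tool, read length and strand setting were not given in the sources used here. Each column sums to 1000000 over 55487 genes, after 287 repeated lines were removed. Depth was read from the CPM of 1 read. Of values up to 20 reads, 80.7% to 82.8% per library were whole within 0.01 read, so no count test was run. Counting intervals (exact binomial, 95%) and 3-read limits cover counting error only.

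Groups came from titles. Genes with at least 1 CPM in 3 of 16 samples (18859) were fitted as log2(CPM + 0.5) with limma 3.58.1 in R 4.3.3 (intensity trend, Benjamini-Hochberg, called at adjusted p under 0.05), each pair on its 2 groups and the interaction on all 16. Group means of single genes were set against all regroupings of the mice (exact permutation test, two-sided, with p as 2 times the smaller tail). A first coding by absolute difference had been seen and was replaced by this planned one. Members and lists were chosen with earlier results of these data known. Named genes were the members, up to 2 increases and 2 decreases per list at ZT1, the 5 genes closest to *Ighm* (1 of which, with 1 B cell marker, is not reported here), and *Gfap* and *Lcn2*. In the text these were given for the lymphocyte lists, and the other lists mostly by counts. Further list genes, such as *Cd22*, *Ccr7*, *Gzma*, *Ighg2c* and *Ncr1*, were named after their values were seen. List counts at 0.1 CPM, those without replicate 4 of ZT13 LPS, and leaving mice out of the permutation differences were added after the data were seen. Of the gene identifiers, 55141 are in GENCODE M21. The fits were tested on simulated data, and the alternatives tried are given in the closing part. Tables and plots used matplotlib 3.10.9, numpy 2.4.6 and pandas 2.3.3 under Python 3.11.15.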

Additional observations from a re-analysis of the deposited data

Results flagged for a closer look

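In the 20 LPS groups of 5 mice, 1 for each of 10 genes at each time, 3 held a mouse whose gap to the nearest other exceeded Dixon's limit of 0.71 of the group's range. Chance flags about 1 group in 20 of continuous values, a rate that does not hold for counts this low. *Cd3e* was 0.606 CPM (16 reads) in replicate 4 of ZT13 LPS against 0.0443 to 0.134 CPM in the other 4 mice. *Cd79a* was 0.412 CPM (12 reads) in replicate 3 of ZT1 LPS, in a group that began at 0.0453 CPM. *Cd3g* was 0.0466 CPM in replicate 1 of ZT1 LPS, which is 1 read in a group otherwise without any, so the limit was passed by construction.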

How the results depend on the processing

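The fall of *Ighm* at ZT1 kept its direction under all 9 alternative settings and without each of 8 mice (log2 fold change -1.19 to -0.89). Its adjusted p by limma stayed under 0.05 in 7 of the 9 settings and in 6 of the 8 fits that left out a mouse. Members called at ZT1 were 1 in the reported fit, 2 with the 0.1 CPM filter (*Cd79b*, which met that filter through LPS mice, being the second), 0 with all genes above 0 CPM, 0 without an intensity trend, and 0 to 1 when a mouse was left out. Genes called at ZT1 went from 3061 to 1605 with all genes above 0 CPM, and to 1767 to 3758 when a mouse was left out. In PBS mice the 98 genes called between times became 24 with the 0.1 CPM filter, 65 with all genes above 0 CPM, 43 in one fit of all samples, 3 without the trend and 12 to 87 without a mouse. In LPS mice the 4 genes called became 1 with all genes above 0 CPM, 122 in one fit, 225 with sample quality weights, 0 without the trend and 0 to 345 without a mouse. The 30 genes of the interaction became 12, 124 and 11 with all genes above 0 CPM, with quality weights and without the trend, and 7 to 104 without a mouse. The log2 fold change of *Trbc2* between times in PBS mice, 0.02, ranged from -0.15 to 0.15 without a mouse, and was -0.01 without replicate 3 of ZT1 PBS and -0.15 without replicate 2 of ZT13 PBS. Its interaction of 0.12 ranged from -0.01 to 0.29. The cause was not tested in any of these cases. Replicate numbers were not treated as pairs, since deviations of same-numbered mice correlated at -0.20 to 0.33 over 20 pairs. With the replicate number as a block, 57 genes were called between times in PBS mice and 2637 at ZT1, and no member's call changed. Without replicate 4 of ZT13 LPS, chosen after seeing the data, the 0.1 CPM filter at ZT13 called 4 in place of 5 of 14 NK and cytotoxic genes, 0 in place of 1 of 7 plasma cell genes (*Ighg2c*), 0 in place of 1 of 4 platelet genes, and 9 in place of 11 of 16 T cell receptor signalling genes, while B cell and T cell counts stayed at 3 and 1. For *Ighd*, *Igkc*, *Cd79a*, *Cd3e*, *Cd3g*, *Trac* and *Nkg7*, with 16 reads or fewer per mouse, depth limits any statement on a change.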
